A study of Mus musculus with 4 samples.

Results

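The 7 genes that encode the insulin-like growth factor (IGF) binding proteins, Igfbp1 to Igfbp7, were chosen by name, as a gene family, out of 20284 genes in the deposited table. They were followed through mouse embryoid bodies, the aggregates that embryonic stem cells form when they differentiate, at day 9. RNA of single cells was counted in droplet libraries (10x Genomics). There were 2 libraries of control embryonic stem cells and 2 of embryonic stem cells that had been pulsed with DUX, a transcription factor of the cleavage-stage embryo, before the aggregates were made. Both groups were described as cultured stem cell organoids, with biological replicates within each group. The stem cell line, its clone number, and the dose and length of the pulse were not given in the sources used here. The pulsed gene itself was not analysed here. P-values of comparisons between control and DUX-pulsed libraries measure the spread between these 4 libraries only. Those of tests between classes or clusters of cells rest on the same 4 libraries.

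IGFs are small secreted proteins that act through the IGF1 receptor to promote growth and survival, and most of the IGF outside cells is held by a binding protein. The binding proteins lengthen the life of an IGF, keep it from its receptor or release it near a cell when a protease cuts them, and several also act on integrins or the extracellular matrix. IGFBP1 comes mainly from liver and other endoderm and is repressed by insulin through FOXO factors. IGFBP2 is a major form of the embryo, and IGFBP3 is the main serum carrier, in a complex with the acid-labile subunit. IGFBP4 mostly withholds IGF until the protease PAPP-A cleaves it, and IGFBP5 binds matrix and is known from muscle and bone. IGFBP6 prefers IGF2, while IGFBP7 binds IGFs weakly and is known from vessel walls.

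The genes lie at 5 places in the genome (GRCm38/mm10 coordinates, GENCODE vM21). Igfbp1 (chr11:7197782-7202546, plus strand) and Igfbp3 (chr11:7206086-7213923, minus strand) point toward each other across a gap of 3.54 kb. Igfbp2 (chr1:72824503-72852474, plus strand) and Igfbp5 (chr1:72857932-72874884, minus strand) do the same across 5.46 kb. Igfbp4 (chr11:99041244-99054392, plus strand), Igfbp6 (chr15:102144362-102149511, plus strand) and Igfbp7 (chr5:77349240-77408041, minus strand) have no other member beside them. All are protein-coding.

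All 7 matched a RefSeq promoter (GRCm38.p6), and Igfbp2 had 2 entries. The 120 bases before the start are shown for the convergent pair Igfbp1 and Igfbp3 and for Igfbp4 and Igfbp7, which rose together in the whole culture. The 250 bases before each start were searched on both strands for 3 motifs, none of which overlap here, and capitals mark the matches. The first was CAAAACAA, letters of the insulin response element, which FOXO factors bind. The second was TATAAA, the core promoter element that positions the polymerase. The last was GGGCGG, the site of SP1.
Igfbp1, chr11:7197667-7197786, plus strand: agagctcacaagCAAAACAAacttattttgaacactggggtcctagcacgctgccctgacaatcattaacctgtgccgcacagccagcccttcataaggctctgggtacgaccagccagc
Igfbp3, chr11:7213924-7214043, minus strand: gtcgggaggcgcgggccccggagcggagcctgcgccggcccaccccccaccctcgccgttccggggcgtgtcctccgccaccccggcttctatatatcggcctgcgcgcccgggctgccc
Igfbp4, chr11:99041124-99041243, plus strand: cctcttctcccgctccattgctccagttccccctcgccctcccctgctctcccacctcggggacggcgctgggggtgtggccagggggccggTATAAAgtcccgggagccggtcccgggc
Igfbp7, chr5:77408046-77408165, minus strand: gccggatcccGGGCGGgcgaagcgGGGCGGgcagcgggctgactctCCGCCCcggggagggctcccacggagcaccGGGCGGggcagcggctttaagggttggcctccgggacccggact

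CAAAACAA stood in the Igfbp1 promoter 108 bases before the start and in no other member, against 2.22% of 27025 RefSeq promoters. Igfbp4 held TATAAA 28 bases before its start, as did 13.0% of promoters anywhere in the same window. Igfbp6 held it too, on the opposite strand. GGGCGG occurred 4 times in Igfbp7, 1 of them on the opposite strand, 3 times in 1 of the Igfbp2 entries and in none of the others, against 32.9% of promoters with at least 1 match. Igfbp3 and Igfbp5 held none of these letters in the window. A match is a string of letters and was not tested as a site.

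The kept cells numbered 2824 and 2636 in the control libraries and 2063 and 1353 in the DUX-pulsed libraries, with 36462169 to 96344329 unique molecular identifiers (UMIs, counted RNA molecules) per library. Median depth per cell lay between 27260 and 30402.5 UMIs, and pairs of libraries shared between 0 and 2 cell barcodes. The median mitochondrial share was 6.22% and 6.42% in the control libraries and 4.01% and 4.54% in the DUX-pulsed libraries. Clustering without the 7 genes and other IGF genes gave 24 clusters. Markers named 9 classes, each called by the cell type its genes resemble, and left 11 clusters known by number, which made 20 groups of cells. Cardiomyocyte-like cells had a UMI for all 20 markers of their list in every library. Mesenchyme- and fibroblast-like cells had a UMI for all 18, and endothelium-like cells for all 16. Detection in a sum of many cells is a weak check, and cluster 3, left unnamed, also had all 18 mesenchyme markers. Markers raised by at least 1 log2 unit over all other cells, in at least 20% of cells, were 16 of 16 in endothelium-like cells. They were 12 of 15 in parietal endoderm-like and 8 of 14 in trophoblast-like cells. The 2 groups of libraries differed in cell makeup. Cardiomyocyte-like cells were 141 and 119 cells in the control libraries against 408 and 389 in the DUX-pulsed libraries. Visceral endoderm-like cells were 273 and 211 against 1 and 4. The last contrast depended on the clustering: in a finer one (Leiden resolution 2), visceral endoderm-like cells were 212 and 146 against 46 and 5.

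The levels of all 7 genes differed widely between groups of cells. Igfbp3 was highest in endothelium-like cells, where its level was 609 and 905 CPM (counts per 1000000 counts) in the control libraries and 439 and 1340 CPM in the DUX-pulsed libraries. These values lay above every library of the next group, cluster 8 (37.3 to 261 CPM), which was led by Ghrl, Cdkn2b and Cldn4. A UMI for Igfbp3 was found in 87.5%, 76.9%, 75.7% and 83.3% of endothelium-like cells (control 1 and 2, then DUX-pulsed 1 and 2), at median depths of 18108 to 33628.5 UMIs. After thinning of each cell to 5000 UMIs, which left out 3 of 13 cells in control 2 and 7 of 42 in DUX-pulsed 2, the shares were 62.5%, 80.0%, 58.6% and 85.7%. Cardiomyocyte-like cells, the group with the lowest mean level (0.619 to 6.04 CPM), had a UMI in 1.47% to 4.37% of cells at median depths of 21192 to 21862 UMIs, and in 0% to 1.56% after thinning.

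Igfbp4 was also highest in endothelium-like cells, at 509 and 764 CPM in the control libraries and 536 and 579 CPM in the DUX-pulsed libraries. Cluster 3, whose leading genes included Lhx2 and Rgs5, followed at 380 to 474 CPM with no overlap, and mesenchyme-like cells stood at 297 to 436 CPM, overlapping cluster 3. Every other group lay below these 3, and visceral endoderm-like cells were next at 161 CPM in both control libraries. Igfbp7 had the same leading groups in the same order, but their ranges overlapped: 72.6 to 194 CPM in endothelium-like cells, 48.4 to 141 CPM in cluster 3 and 12.6 to 74.7 CPM in mesenchyme-like cells. No Igfbp7 UMI was found in erythroid-like cells of any library or in trophoblast-like cells. At their depth 3 UMIs, the limit that a count of 0 allows, would be 3.12 to 8.24 CPM in the erythroid-like cells and 1.46 and 5.47 CPM in the trophoblast-like cells of the DUX-pulsed libraries. Such limits cover counting error only.

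Igfbp2 was highest in primitive streak-like cells, a group that only the control libraries held in number (103 and 48 cells against 1 and 4). Its level there was 1263 and 1289 CPM, above every library of cluster 9 (705 to 991 CPM), which was led by Sox2 and Foxe1. Trophoblast-like cells of the DUX-pulsed libraries (691 and 887 CPM) overlapped cluster 9. At the other end, parietal endoderm-like cells (3.60 to 17.1 CPM), erythroid-like cells (3.12 to 13.0 CPM) and cluster 15 (0.291 to 6.36 CPM), which was led by the blood genes Pf4 and Fcer1g, were apart from all other groups and overlapped one another.

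Igfbp5, the neighbour of Igfbp2, had its highest mean in cluster 9 (277 to 1082 CPM), followed by cardiomyocyte-like cells (131 to 492 CPM). These ranges overlapped each other and those of hepatic-like cells and cluster 3. Hepatic-like cells showed 331 and 316 CPM in the control libraries, from 11 and 10 cells, against 26.7 CPM in DUX-pulsed 1, from 33 cells. The DUX-pulsed 2 library held 8 such cells and was not measured there, so the difference has no replicate check. In cluster 3 the level in control 2 was 443 CPM and stood apart from the other 3 libraries (112 to 132 CPM).

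The highest means of Igfbp1 were in cluster 19 (103 to 305 CPM), led by Ly6h and Dio3, and in cluster 18 (133 to 216 CPM), led by Rarres1 and Ly6h, followed by cluster 10 (47.4 and 159 CPM), led by Anpep and Tff3. Visceral endoderm-like cells had 65.5 and 96.3 CPM. None of these neighbours in the order was separated by its range. The top values of clusters 19 and 18 were those of DUX-pulsed 2, from 12 and 13 cells. In the control libraries their means were 143 and 150 CPM, so the order of these clusters was the reverse there. In parietal endoderm-like cells, Igfbp1 stood at 9.81 CPM in control 1 and at 85.3 and 67.6 CPM in the DUX-pulsed libraries. Control 2 held 8 such cells and was not measured, and the DUX-pulsed 2 cells had a median of only 2629 UMIs. Leading genes of these cells also included visceral endoderm markers (Rhox5, Lrp2 and Cubn). How far visceral endoderm-like cells enter this difference was not tested. Mesenchyme-like and cardiomyocyte-like cells had at most 6.72 and 4.04 CPM.

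Igfbp6 had low counts in every group. Trophoblast-like cells had the highest mean, with 5.47 CPM in 1 DUX-pulsed library and 58.5 CPM in the other. Cluster 22, led by Ifitm1 and Col9a3, had 24.4 and 24.5 CPM, and cluster 20, led by Dnmt3b, 20.8 and 22.04 CPM, all in control libraries. Cluster 8 had 23.6 and 57.7 CPM in the control libraries, the highest mean of any control group, and 5.50 and 3.87 CPM in the DUX-pulsed libraries. Visceral endoderm-like cells had 18.99 and 22.2 CPM. In cardiomyocyte-like cells the highest library stood at 0.413 CPM.

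**Figure D1:**
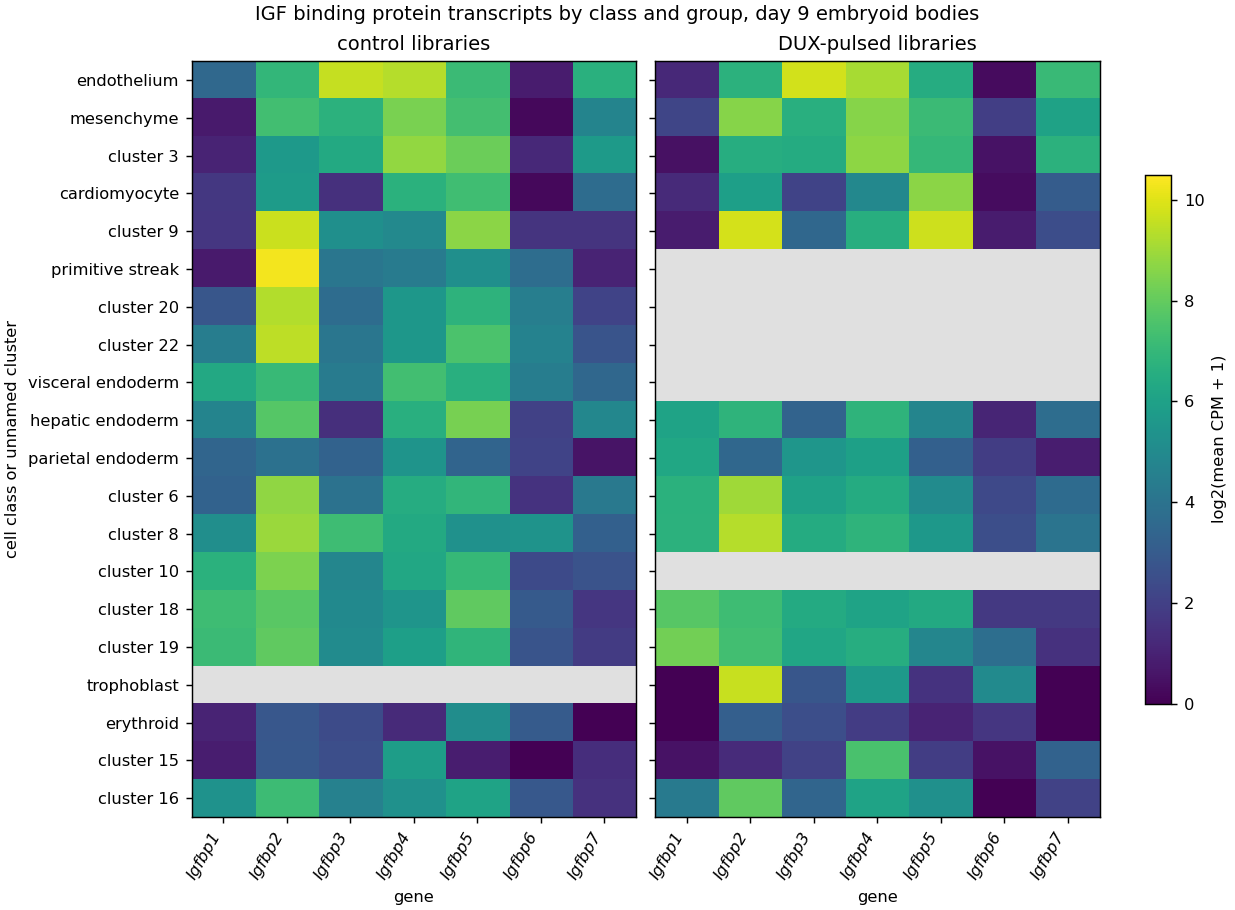
Mean level of the 7 genes as log2(CPM + 1) (colour) in the 20 groups of cells (one axis) of control and DUX-pulsed libraries (panels), grey where no library of the group had at least 10 cells. Igfbp3, Igfbp4 and Igfbp7 have their highest mean in endothelium-like cells, Igfbp2 in primitive streak-like cells and Igfbp1 in clusters 18 and 19.

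Over 63 sums of a group of cells in a library, Igfbp4 and Igfbp7 had the highest correlation of any pair of members (Pearson r = 0.81 of log2(CPM + 1)). The convergent neighbours were less alike, with r = 0.25 for Igfbp1 and Igfbp3 and r = 0.53 for Igfbp2 and Igfbp5. The sums of 1 library share its preparation and depth, so these values are descriptions. Among all genes with at least 20 CPM in a sum, Igfbp4 was most like Sept11 (0.87), Cmtm3 (0.82) and Igfbp7, while Igfbp7 was most like Fbn1 (0.82), which encodes the matrix protein fibrillin 1, Vim (0.81), the intermediate filament vimentin, and Igfbp4. Igfbp1 was most like Fabp2 (0.89), a fatty acid carrier of the gut, Rbp4 (0.86), the plasma carrier of retinol, and Tff3 (0.85), a mucosal peptide. Igfbp2 was most like Ptprf (0.83), Mmp11 (0.82) and Cacnb3 (0.82). Igfbp5 was most like Nfatc4 (0.83) and Ttc3 (0.80). The values were lower for Igfbp3, which was most like Ppp3ca (0.73), Grin2c (0.72) and Nedd9 (0.71), and for Igfbp6, which was most like Dhx32 (0.73), Slc13a4 (0.72) and Adora2b (0.71).

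In the whole culture, with all kept cells of a library summed, Igfbp7 and Igfbp4 rose and Igfbp6 fell after the DUX pulse. These 3 of the 7 genes passed edgeR's quasi-likelihood test at an adjusted p of 0.05, as did 26.7% of all 16140 genes tested (15.6% higher and 11.1% lower). The median log2 difference of the 7 genes was 0.23, against -0.00 over all genes. All but Igfbp5 had groups of libraries that did not overlap, as had 67.6% of all genes. Levels in this comparison are CPM over TMM-scaled library sizes.

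Igfbp7 had 8.89 and 6.32 CPM in the control libraries and 26.0 and 35.1 CPM in the DUX-pulsed libraries, from 520 to 1626 UMIs. Both DUX-pulsed values lay above both control values. The means were 7.61 ± 1.82 and 30.5 ± 6.49 CPM (SD, n = 2 each), a log2 difference of 2.003 (SE 0.24; edgeR's quasi-likelihood test, Benjamini-Hochberg adjusted p = 0.00405). The call held under all 11 alternatives that were tested. Igfbp4 had 95.4 and 86.6 CPM against 151 and 196 CPM, again with no overlap. Its means were 91.0 ± 6.21 and 174 ± 31.6 CPM (SD, n = 2 each), a log2 difference of 0.93 (SE 0.18; adjusted p = 0.0144, same test). The adjusted p was 0.0789 without control 2 and 0.0537 under a strict filter that kept 523 to 1320 cells a library. That filter kept 644 and 523 control cells against 1320 and 694 DUX-pulsed cells, so it removed more of the control cells. Igfbp6 had 11.9 and 10.9 CPM against 4.90 and 1.73 CPM, and both DUX-pulsed libraries were the lower. Its means were 11.4 ± 0.70 and 3.32 ± 2.24 CPM (SD, n = 2 each), and its log2 difference was -1.76 (SE 0.45; adjusted p = 0.0357, same test). Without DUX-pulsed 1 the difference was -2.70, still called. The adjusted p rose to 0.122 under the strict filter and to 0.05004, just over the threshold, when the cells with the top 5% of doublet scores were left out.

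The other 4 genes did not pass the test. Igfbp3 had 28.3 and 34.7 CPM in the control libraries against 45.6 and 107 CPM, with DUX-pulsed 2 far above the rest (log2 difference 1.28, SE 0.39; adjusted p = 0.0583, edgeR). It was called by DESeq2 (1.28; adjusted p = 0.00262) and without DUX-pulsed 1 (1.79; adjusted p = 7.85e-05). Igfbp1 had 49.4 and 92.3 CPM against 46.5 and 45.6 CPM, with control 2 alone well above the other libraries (-0.62; adjusted p = 0.166, edgeR). Without control 1 the difference was -0.99 and was called (adjusted p = 0.0225). Igfbp2 had 400.1 and 336 CPM against 280 and 312 CPM, which did not overlap but did not pass the test (-0.32; adjusted p = 0.206, edgeR). Igfbp5 had 127 and 149 CPM against 125 and 198 CPM, and its groups overlapped (0.23; adjusted p = 0.525, edgeR).

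**Figure D2:**
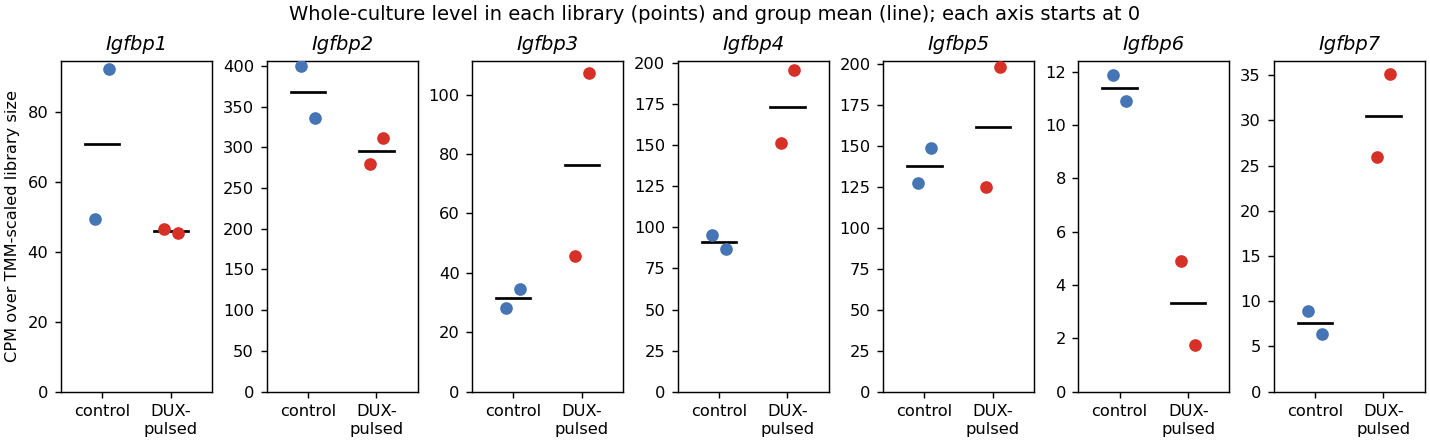
Level of each gene (vertical axis, CPM over TMM-scaled library size, from 0) in the summed cells of the control and DUX-pulsed libraries (points; the line is the group mean). Igfbp7 and Igfbp4 are higher and Igfbp6 lower in both DUX-pulsed libraries, and Igfbp5 overlaps.

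Genes beside each member on its chromosome were compared with it. The median log2 difference of the 20 nearest tested genes, 10 on each side, was -0.16 around Igfbp7, -0.08 around Igfbp4 and -0.26 around Igfbp6. It lay between 0.03 and 0.31 around the other 4 genes. Of these 20 neighbours, 2 were called higher and 3 lower for Igfbp7 and for Igfbp4, and 4 higher and 4 lower for Igfbp6. The counts were 3 and 0 for Igfbp1 and for Igfbp3, 2 and 2 for Igfbp2, and 3 and 2 for Igfbp5, beside 26.7% of all genes called.

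The cells that supplied each gene's UMIs changed with the makeup of the culture. In the control libraries the largest shares of Igfbp7 UMIs came from cluster 3 (21.2%, mean of the 2 libraries) and visceral endoderm-like cells (18.6%). Endothelium-like cells gave 3.65% in 1 control library and 20.8% in the other. In the DUX-pulsed libraries the largest shares came from mesenchyme-like cells (34.6%) and cluster 3 (29.5%). Endothelium-like cells gave 6.26% in 1 library and 25.9% in the other, which overlapped their control shares. Igfbp4 moved likewise, from visceral endoderm-like cells (24.2%) and cluster 3 (15.2%) to mesenchyme-like cells (35.5%) and cluster 3 (21.6%). Endothelium-like cells were 0.955% of control cells and gave 19.6% of Igfbp3 UMIs there, though 8.30% in 1 library and 30.9% in the other. They were 3.25% of DUX-pulsed cells and gave 32.5% and 33.3%.

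The largest share of Igfbp5 UMIs came from cluster 18 in the control libraries (19.5%) and from cardiomyocyte-like cells in the DUX-pulsed libraries (46.9% of its UMIs from 24.3% of cells). Cluster 9, with 3.62% of DUX-pulsed cells, gave 20.4%. Igfbp1 came from clusters 19 (37.0%) and 18 (25.1%) in the control libraries. In the DUX-pulsed libraries it came from cluster 8 (32.0%), cluster 6 (25.6%) and parietal endoderm-like cells (22.4%, though 4.53% in 1 library and 40.4% in the other). Igfbp2 came from clusters 20 (24.2%) and 22 (17.5%) and primitive streak-like cells (14.5%) in the control libraries, and from cluster 8 (29.4%), mesenchyme-like cells (20.5%) and cluster 6 (19.3%) after the pulse. Igfbp6 came from cluster 20 (26.7%), visceral endoderm-like cells (20.9% and 29.1% in the 2 libraries) and cluster 22 (20.1%) in the control libraries, and from cluster 8 (13.4% and 34.9%) and trophoblast-like cells (4.76% and 39.1%) after the pulse, with wide gaps between the 2 libraries. The groups that held most control UMIs of Igfbp1, Igfbp2 and Igfbp6 held 1 to 13 cells in each DUX-pulsed library. Few cells could still hold much Igfbp1. Of its UMIs in the DUX-pulsed libraries, visceral endoderm-like cells gave 0% in 1 library and 12.7% in the other. Cluster 19 gave 0.721% and 10.1%, and cluster 18 gave 0.309% and 5.62%.

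**Figure D3:**
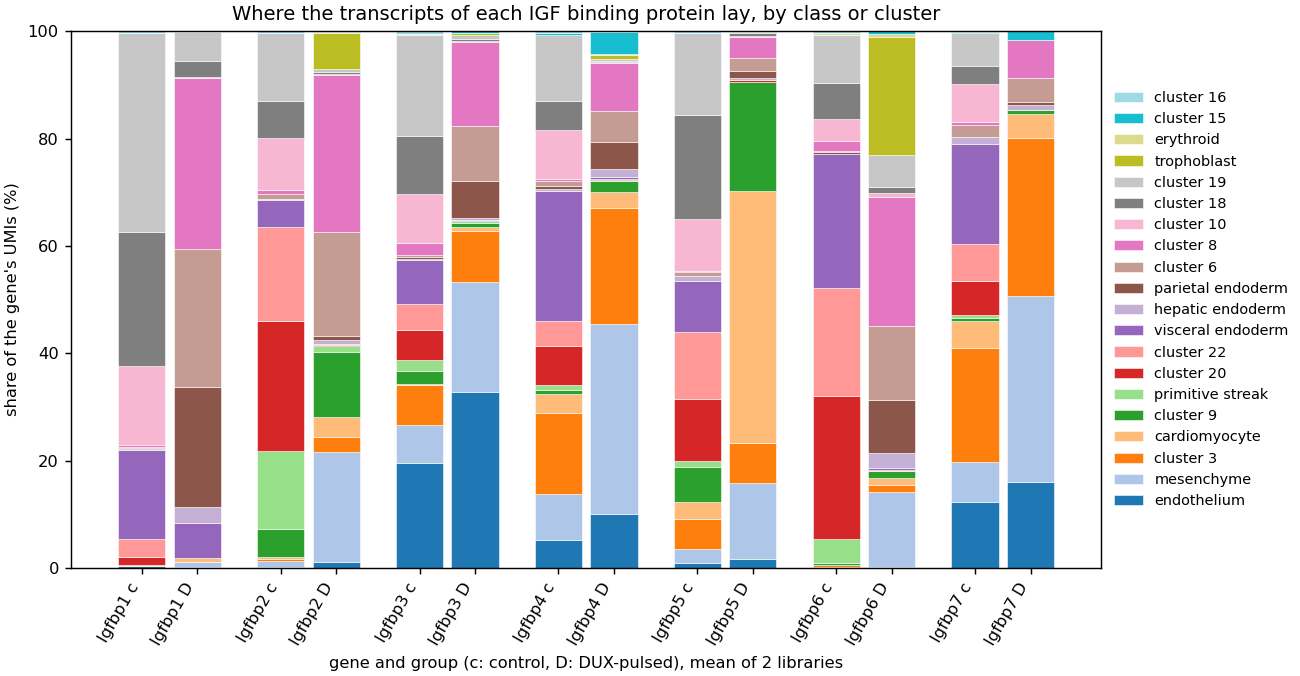
Share of each gene's UMIs (vertical axis, %, mean of 2 libraries) held by each group of cells (colours), in control (c) and DUX-pulsed (D) libraries. Cardiomyocyte-like cells hold 46.9% of Igfbp5 UMIs after the pulse, and endothelium-like cells hold 8.30% and 30.9% of Igfbp3 UMIs in the control libraries and 32.5% and 33.3% in the DUX-pulsed libraries.

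The CPM of the 9 groups with at least 10 cells in every library were also averaged with equal weight, a setting chosen after the data were seen. The log2 ratios of these averages, DUX-pulsed over control, were 0.69 for Igfbp7, -0.016 for Igfbp4 and -1.97 for Igfbp6. Groups with high CPM of a gene weigh most in its ratio. The value for Igfbp1 was 1.22, opposite in sign to its whole-culture value, and that for Igfbp2 was 0.37, likewise opposite. Igfbp3 stood at 0.09 and Igfbp5 at 0.30. These 9 groups covered 30.8% and 28.8% of the control cells but 75.3% and 89.3% of the DUX-pulsed cells. The comparison thus leaves out most control cells. Among the 9 was cluster 16, with a median of only 1058 UMIs a cell and 342 and 402 control cells. Clusters 6 and 8 had equal weight too, with 18 and 21, and 13 and 13, control cells. No test was made on it.

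Within cardiomyocyte-like cells the pulse went with opposite changes of 2 members: Igfbp4 fell and Igfbp5 rose. Igfbp4 had 85.4 and 112 CPM in the control libraries against 27.8 and 32.5 CPM in the DUX-pulsed libraries. Both DUX-pulsed values were far below both control values. The means were 98.9 ± 19.1 and 30.1 ± 3.32 CPM (SD, n = 2 each), a log2 difference of -1.71 (SE 0.21; edgeR's quasi-likelihood test, adjusted p = 8.58e-05). Igfbp5 had 132 and 163 CPM against 354 and 491 CPM, again with no overlap. Its means were 147 ± 22.2 and 423 ± 97.4 CPM (SD, n = 2 each), a log2 difference of 1.52 (SE 0.22; adjusted p = 0.000319, same test). Of the 7 genes, 4 passed the filter on low counts there. In these cells 15.7% of all genes tested were called. Igfbp2 (0.31; adjusted p = 0.399) and Igfbp7 (-0.61; adjusted p = 0.228) did not pass. Both calls held under all 15 alternatives.

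Different clusters made up this cardiomyocyte class in the 2 groups of libraries: cluster 17 held 84 and 71 of the control cells but 7 and 4 of the DUX-pulsed cells, and cluster 1 held 14 and 3 against 255 and 188. Inside cluster 17, Igfbp4 stood at 78.9 and 115 CPM in the control libraries and at 82.9 and 94.5 CPM in the DUX-pulsed libraries (21 and 13 UMIs), which overlapped. Inside cluster 2, with 17 and 9 control cells and 115 and 64 DUX-pulsed cells, Igfbp4 stood at 93.5 and 170 CPM against 23.4 and 23.1 CPM, and Igfbp5 at 113 and 66.1 CPM against 302 and 355 CPM. Igfbp5 in cluster 17 stood at 132 and 208 CPM against 324 and 50.9 CPM, which overlapped too. The values of both genes thus ran with the class in cluster 2 and did not in cluster 17, where DUX-pulsed cells were few. In cluster 1, Igfbp5 stood at 202 and 179 CPM against 351 and 588 CPM, while Igfbp4 overlapped, at 46.5 and 17.9 CPM (12 and 1 UMIs) against 23.0 and 30.03 CPM. Cluster 12, of low depth, was tested alone, and neither Igfbp4 (-0.32; edgeR, adjusted p = 0.789) nor Igfbp5 (1.07; adjusted p = 0.483) was called there, nor was any of the 2419 genes tested (0%). Clusters 1, 2 and 17 did not all reach 10 cells in every library, so these values had no test.

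Smooth muscle markers moved with the class. All 10 genes of that list had a UMI in the cardiomyocyte-like cells of both control libraries, at a summed level of 12215 and 12919 CPM. In the DUX-pulsed libraries 9 of 10 had one, at 4457 and 3662 CPM, and Myh11, a defining gene of smooth muscle, was at 0. The summed cardiomyocyte list was 50367 to 56171 CPM in the 4 libraries. The part of smooth muscle genes in the Igfbp4 and Igfbp5 differences was not tested.

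Within mesenchyme- and fibroblast-like cells, Igfbp2 and Igfbp7 rose. Igfbp2 had 126 and 169 CPM in the control libraries and 427 and 385 CPM in the DUX-pulsed libraries, well apart. The means were 148 ± 30.05 and 406 ± 29.9 CPM (SD, n = 2 each), a log2 difference of 1.47 (SE 0.21; edgeR's quasi-likelihood test, adjusted p = 0.00367). Igfbp7 had 12.1 and 35.4 CPM against 61.0 and 77.9 CPM, with control 1 the lowest. Its log2 difference was 1.65 (SE 0.37; adjusted p = 0.0265, same test). Without control 2 it was 2.51, still called. Without control 1 it was 0.98 and no longer called (adjusted p = 0.114), and with no filter on low counts the adjusted p was 0.129. Of the 7 genes, 6 were tested here, where 7.17% of all genes were called. Igfbp4 (0.35; adjusted p = 0.340), Igfbp3 (0.08; adjusted p = 0.931) and Igfbp5 (-0.02; adjusted p = 0.974) did not pass. Igfbp6 had 1 and 0 UMIs against 32 and 11 (adjusted p = 0.0943).

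The class held 2 clusters in which Igfbp2 ran in opposite directions, a split looked at after the class values were known. In cluster 4, led by Lum, Postn and Upk3b, Igfbp2 had 135 and 191 CPM in the control libraries against 663 and 593 CPM in the DUX-pulsed libraries. The groups were far apart, and the log2 difference was 1.95 (SE 0.21; edgeR's quasi-likelihood test, adjusted p = 0.000873). Of all genes, 5.92% were called in cluster 4. In cluster 0, led by Ptn and Hoxc10, the same gene had 120 and 143 CPM against 68.2 and 27.3 CPM, lower in both DUX-pulsed libraries but not past the threshold (-1.45, SE 0.36; adjusted p = 0.0583). The call rate of cluster 0 was 2.25%. The test of the difference between the 2 clusters' responses gave an adjusted p of 0.00458 for Igfbp2, and Igfbp2 was 1 of 2 genes called among 11068 (0.0181%).

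Igfbp7 ran the same way in both clusters. It had 3.91 and 6.56 CPM against 21.4 and 33.9 CPM in cluster 4 (log2 difference 2.44, SE 0.44; edgeR, adjusted p = 0.00997), from 5 and 6 control UMIs. Igfbp7 thus passed the filter there through the DUX-pulsed libraries alone. In cluster 0 it had 18.7 and 75.1 CPM against 119 and 154 CPM (1.69; adjusted p = 0.0762). The summed mesenchyme marker list of cluster 4 also differed, at 5301 and 6649 CPM in the control libraries against 8014 and 15303 CPM, with 17 or 18 of 18 genes detected and only Prrx1 at 0 in 1 library of each group. Its part in the Igfbp2 and Igfbp7 differences was not tested.

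Endothelium-like cells, the group with the highest Igfbp3, Igfbp4 and Igfbp7, showed no called difference of a member. The 5 genes tested there had overlapping groups, and 1.14% of all genes were called. Igfbp3 had 603 and 831 CPM in the control libraries against 463 and 1397 CPM, with both extremes in the DUX-pulsed group (log2 difference 0.38; edgeR's quasi-likelihood test, adjusted p = 0.777). Igfbp7 (0.53; adjusted p = 0.664) and Igfbp4 (-0.03; adjusted p = 0.976) had no called difference either. Control 2 held only 13 such cells, which limits the precision. In erythroid-like cells, where 4.23% of genes were called, no member passed the filter on low counts. Their highest Igfbp5 count, 24 UMIs, was in control 1, against 1 UMI in each of the other libraries.

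The 4 named classes that could be tested together were cardiomyocyte-, mesenchyme-, endothelium- and erythroid-like cells. Low counts limited the last, where no member passed the filter when tested alone. By the class and group terms of a joint edgeR fit, the responses differed between these classes for 4 of the 7 genes (6.99% of all genes). These were Igfbp4 (adjusted p = 5.26e-06), Igfbp5 (7.84e-05), Igfbp2 (0.00251) and Igfbp7 (0.0308). Igfbp1 (0.0700), Igfbp6 (0.144) and Igfbp3 (0.897) were not called. For Igfbp4 and Igfbp5 the call held under all 8 alternatives of this fit. For Igfbp2 the adjusted p was 0.759 under the strict cell filter, 0.0724 without the top doublet scores and 0.279 after thinning. For Igfbp7 it was 0.113 after thinning and 0.118 without control 1.

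**Figure D4:**
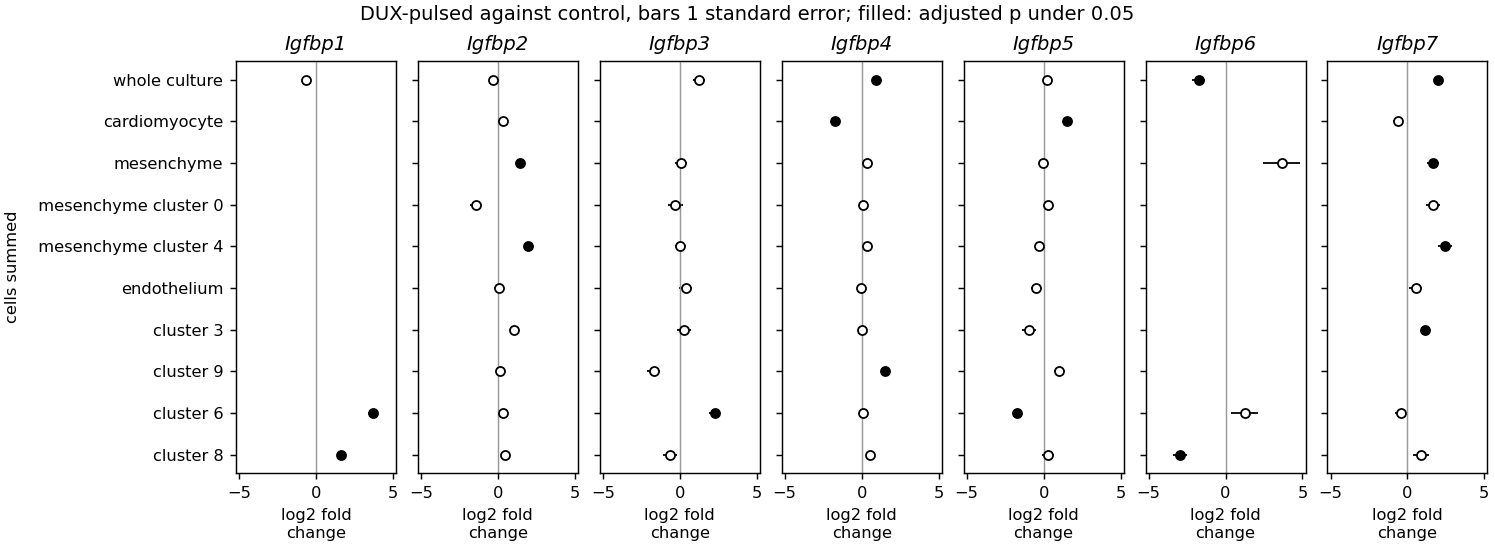
Log2 difference, DUX-pulsed against control (horizontal axis, bars 1 SE), of each gene in the whole culture and in single classes and clusters, filled where the adjusted p was under 0.05 and blank where not tested. Igfbp4 is higher in the whole culture (0.93) and lower in cardiomyocyte-like cells (-1.71).

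Among the clusters known by number, 7 differences of members were called. Cluster 6, led by Ghrl, Cdkn2b and Shh, held 3 of them among 7 genes tested, where 5.6% of all genes were called. Igfbp1 had 8.83 and 8.10 CPM in the control libraries, from 7 UMIs in each, against 121 and 100.5 CPM in the DUX-pulsed libraries. It passed the filter on low counts through the DUX-pulsed libraries alone. The groups were far apart, with a log2 difference of 3.71 (SE 0.32; edgeR's quasi-likelihood test, adjusted p = 4.55e-06). Its convergent neighbour Igfbp3 had 22.7 and 5.79 CPM against 59.2 and 74.8 CPM (2.26, SE 0.37; adjusted p = 0.00244). That difference was 3.54 without control 1 and 1.56 without control 2, called in both. Igfbp5 had 95.8 and 128 CPM against 38.4 and 30.6 CPM and fell by 1.70 (SE 0.23; adjusted p = 0.000495). After thinning Igfbp5 was no longer called (adjusted p = 0.0557). The control libraries held 18 and 21 of these cells and the DUX-pulsed libraries 157 and 99. Of the marker lists, cluster 6 came closest to that of hepatic and plasma protein endoderm, which summed to 20128 and 14644 CPM in control and 19001 and 18180 CPM in DUX-pulsed libraries. It overlapped between the groups, with 17 or 18 of 20 genes detected and Apoh and Ahsg at 0 in all 4 libraries. Gut epithelium markers there summed to 7755 to 10013 CPM against 8382 to 9261 CPM and overlapped too.

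Cluster 8, also led by Ghrl and Cdkn2b and by the tight junction gene Cldn4, held 2 called differences, with 11.9% of all genes called. Igfbp1 had 45.6 and 23.5 CPM against 114 and 106 CPM (log2 difference 1.64, SE 0.30; edgeR, adjusted p = 0.000819), but was not called after thinning (1.14; adjusted p = 0.311). Igfbp6 had 23.8 and 54.2 CPM against 5.82 and 3.87 CPM and fell by 2.95 (SE 0.45; adjusted p = 0.000137). The control values for Igfbp6 came from 12 and 23 UMIs of 13 and 13 cells. Marker lists moved with the group in cluster 8: gut epithelium markers, of which 19 of 20 had a UMI in the control libraries (Cdh17 was at 0) and 20 in the DUX-pulsed libraries, summed to 19124 and 22004 CPM against 11771 and 9821 CPM. Their part in these differences was not tested. Clusters 6 and 8, set beside each other after their values were seen, differed in response for Igfbp1 (adjusted p = 0.0285) and Igfbp6 (adjusted p = 0.0158), against 3.48% of all genes. They were not called different for Igfbp3 (0.0555) or Igfbp5 (0.0719). The counts of Igfbp6 in cluster 6 were low, with mean levels of 1.92 CPM in the control and 3.92 CPM in the DUX-pulsed libraries.

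In cluster 9, Igfbp4 had 37.4 and 22.8 CPM in the control libraries against 72.0 and 113 CPM (log2 difference 1.55, SE 0.32; edgeR, adjusted p = 0.0410), where 3.75% of all genes were called. The call was lost after thinning (adjusted p = 0.105) and without the top doublet scores (adjusted p = 0.123). Igfbp5 (means 410 CPM in control and 839 CPM in DUX-pulsed libraries) and Igfbp3 (36.5 and 10.2 CPM) were not called in cluster 9. Their outcome depended on the setting: it was the same in 5 of 9 alternatives for Igfbp5 and in 4 of 8 for Igfbp3. The summed pluripotent marker list of cluster 9 was 2097 and 742 CPM in the control libraries and 318 and 242 CPM in the DUX-pulsed libraries. All 18 genes had a UMI except in DUX-pulsed 2, where 9 had one and Nanog and Esrrb were among those at 0, and the part of this list was not tested. In cluster 3, Igfbp7 had 54.0 and 44.5 CPM against 77.2 and 147 CPM (1.17, SE 0.30; adjusted p = 0.0460), where 5.89% of genes were called. That call was lost after thinning (0.79; adjusted p = 0.237) and without control 1 (0.0861), control 2 (0.113) or DUX-pulsed 2 (0.148). The mesenchyme list in cluster 3 summed to 2074 and 2685 CPM against 3136 and 4610 CPM, with all 18 genes detected, and its part was not tested. Igfbp2 was not called in cluster 3 (log2 difference 1.05, edgeR, adjusted p = 0.0618), and this outcome was the same in 4 of 10 alternatives. Cluster 16, with a median of 1058 UMIs a cell, had no called member among 4 tested, where 1.25% of genes were called.

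**Figure D5:**
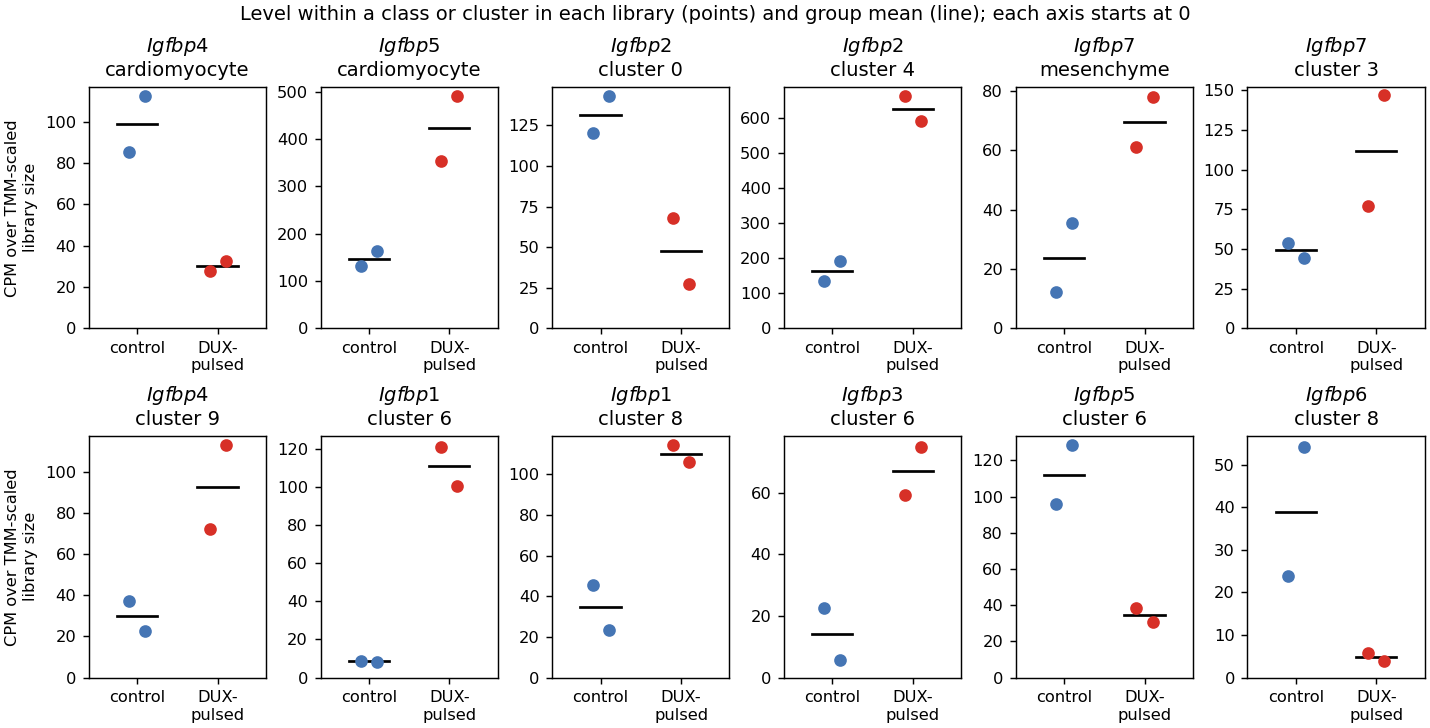
Levels (vertical axis, CPM over TMM-scaled sizes, from 0) of selected genes in each library (points) within single classes and clusters (panels), control beside DUX-pulsed. Igfbp2 is higher after the pulse in cluster 4 (663 and 593 CPM) and lower in cluster 0 (68.2 and 27.3 CPM).

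The ligand genes Igf1 and Igf2 had few UMIs in control cultures, 82 and 35 for Igf1, and rose after the pulse. Igf1 had 0.860 and 0.425 CPM in the control libraries against 10.6 and 10.54 CPM in the DUX-pulsed libraries (log2 difference 4.03, SE 0.36; edgeR's quasi-likelihood test, adjusted p = 0.00259). Igf2 had 0.0629 and 0.0851 CPM, from only 6 and 7 UMIs, against 1.47 and 1.82 CPM, from 92 and 66 (4.44, SE 0.41; adjusted p = 0.00259, same test). Its counts were thus low in every library, and it passed the filter on low counts through the DUX-pulsed libraries alone. How completely Igf2 RNA was counted was not tested. The signalling receptor gene Igf1r also rose, from 53.2 and 64.7 to 97.5 and 157 CPM (1.11, SE 0.26; adjusted p = 0.0251). Igf2r, which clears IGF2 (-0.00; adjusted p = 0.998), and the insulin receptor gene Insr (0.56; adjusted p = 0.147) were not called. So 3 of 5 ligand and receptor genes tested rose and none fell, beside 15.6% of all genes called higher and 11.1% called lower.

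Endothelium-like cells, the group with the highest Igfbp3 level, held a called difference of Igf1: 29.0 and 35.1 CPM against 172 and 289 CPM (log2 difference 2.89, SE 0.37; edgeR, adjusted p = 0.00315). In cardiomyocyte-like cells, where Igfbp4 fell and Igfbp5 rose, Igf2r (0.63; adjusted p = 0.0418) and Insr (1.13; adjusted p = 0.00685) rose while Igf1r was not called (-0.25; adjusted p = 0.506). Insr also rose in cluster 8 (1.53; edgeR, adjusted p = 0.0309). Igf2 did so in cluster 3, from 2 and 1 UMIs against 27 and 11 (3.02; edgeR, adjusted p = 0.0252).

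Of the genes for the ternary complex and for cleavage of binding proteins, 11 were tested in the whole culture, and 5 rose and 2 fell. The smallest p-values were those of Htra1, a secreted protease that cuts binding proteins (1.93 and 1.32 against 7.28 and 6.55 CPM; log2 difference 2.08, adjusted p = 0.00478), and Plg, the plasminogen gene (5.75 and 6.38 against 1.87 and 2.201 CPM; -1.58, adjusted p = 0.00644). Of 13 adaptor and signalling genes 2 rose and 1 fell. Irs4 fell by 2.16 (adjusted p = 0.00828) and Grb10, an adaptor that restrains the receptors, rose by 1.13 (adjusted p = 0.0294). Of 8 tested genes for other proteins with an IGFBP-type domain, 3 rose and 1 fell. Esm1, an endothelial proteoglycan gene, rose by 5.16 (15 and 3 UMIs against 245 and 120; adjusted p = 0.00339), and Igfbpl1 fell by 2.10 (adjusted p = 0.00377). None of the 3 IGF2 mRNA-binding protein genes was called, with adjusted p-values of 0.293 to 0.994 in edgeR's quasi-likelihood test. All these counts stand against the 26.7% of genes called in the whole culture.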

How the data were processed

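The deposited table held UMI counts per gene and cell of all 4 libraries, whole numbers whose cell totals differ, so without normalization by the authors as far as the values show. The submitters' processing notes name Cell Ranger 2.2.0, STAR and the build mm10, with no role for each; no source used here states a cell filter. The deposited cells had 501 or more genes, and their highest mitochondrial share was 19.98%. Column names of cells gave the group (their start) and the replicate (the closing number).

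Kept cells had 500 or more genes and no more than 10% mitochondrial counts (8876 of 10090). Scrublet called 25 doublets (0.282%), which was not relied on; doublets were kept, and the top 5% of its scores were removed as an alternative. Clustering (scanpy 1.11.5, Leiden with igraph 0.11.9, resolution 1, 2000 variable genes, 30 components) left out the members and the IGF lists. Clusters were named from 21 marker lists, with thresholds set after seeing the data, so differences from the study's own cell types may come from rebuilt names. Counts were summed per library, or per library and class with at least 10 cells in every library, and tested with edgeR 4.0.16 in R 4.3.3 (quasi-likelihood, TMM, two-sided). Genes with at least 10 counts in 2 libraries and 40 in all were tested, with Benjamini-Hochberg adjustment over all of them and a threshold of 0.05. The interaction fit had library, class and class by group terms. Its p-values measure the spread of the class by library sums that is left after the library term. The edgeR fits were run on simulated counts with the same dispersion for every gene. That checks the working of the fits and not their error rates at the spread of these libraries.

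Named genes were all 7 members, every ligand and receptor tested, the 2 smallest p-values of each other list and the 3 genes most like each member, of which 1 is not reported here. The members and lists were chosen with earlier results of these data known. Gene positions came from GENCODE vM21 by symbol and promoters from RefSeq (GRCm38.p6). Total counts per library of 36462169 to 96344329 UMIs set the precision of summed values; tested classes rest on as few as 13 cells a library. Alternatives were DESeq2 1.42.0, no count filter, a strict cell filter (1000 or more genes, no more than 5% mitochondrial counts), every deposited cell, thinning to 5000 UMIs, the replicate block, each library left out, other clusterings and, added after seeing the data, single clusters of a class, the cardiomyocyte class without cluster 12 and equal class weights.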

Additional observations from a re-analysis of the deposited data

Results flagged for a closer look

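Responses to the pulse that differed between groups of cells stand here with the adjusted p of the test of that difference (edgeR's quasi-likelihood test). Across the 4 named classes tested together, these were Igfbp4 (5.26e-06), with -1.71 on the log2 scale in cardiomyocyte-like cells and 0.35 in mesenchyme-like cells; Igfbp5 (7.84e-05), with 1.52 and -0.02; Igfbp2 (0.00251), with 0.31 and 1.47; and Igfbp7 (0.0308), with -0.61 and 1.65. Between the mesenchyme-like clusters 0 and 4, the response of Igfbp2 differed (0.00458), at -1.45 and 1.95. Between clusters 6 and 8, it differed for Igfbp1 (0.0285), at 3.71 and 1.64, and for Igfbp6 (0.0158), at 1.25 (not called) and -2.95. The Igfbp6 value of cluster 6 rests on low counts, at means of 1.92 CPM in control and 3.92 CPM in DUX-pulsed libraries. Both cluster pairs were chosen after their values had been seen.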

How the results depend on the processing

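The strict cell filter left 1 called whole-culture member (3 as reported): Igfbp4 0.78, Igfbp6 -1.52, Igfbp2 0.033 and Igfbp5 -0.050, the last pair with a changed sign. It kept 644 of 2824 and 523 of 2636 control cells, against 1320 of 2063 and 694 of 1353 DUX-pulsed cells. Some control groups had median mitochondrial shares above its 5% limit, such as cluster 19 (6.57% and 6.92%). It thus removed cells unevenly, and the part of makeup in these changes was not tested. Thinning gave 5 called members, adding Igfbp1 (-0.94) and Igfbp3 (1.23). Igfbp3 was also called by DESeq2 (1.28) and with no count filter (1.27), and Igfbp6 was lost without the top doublet scores (-1.69). Leaving out 1 library gave 2 to 4 called members, with ranges of -0.99 to -0.11 for Igfbp1, 0.54 to 1.79 for Igfbp3, 0.74 to 1.12 for Igfbp4, -0.13 to 0.54 for Igfbp5 (below 0 without DUX-pulsed 2) and -2.70 to -1.21 for Igfbp6. Equal class weights changed the sign for Igfbp1 (1.22), Igfbp2 (0.37) and Igfbp4 (-0.016). Of the class by group terms, 2 members were called after thinning (4 as reported). Signs also changed for differences that were not called: in endothelium-like cells Igfbp4 with no count filter (0.027), every deposited cell (0.020) and the IGF genes kept in clustering (0.042), and over left-out libraries -0.30 to 0.21; Igfbp3 there with every deposited cell (-0.20) and -0.62 to 0.95; Igfbp7 there, -0.25 to 1.13; and Igfbp2 in cluster 9 without the top doublet scores (-0.12) and -0.0059 to 0.23. In cluster 0 alone Igfbp2 stood at -1.45. Called differences in numbered clusters (7 as reported) were 1 under the strict filter, 2 after thinning, 11 with no count filter, 12 with the replicate block and 8 to 13 without 1 library. Where a library was left out, the lone library of its group was assumed to vary like the other group. Several settings left fewer cells, genes or libraries, and the cause of the changes was not tested. The labels state no shared batch behind the replicate numbers. Deviations of replicate 1 correlated across groups (r = 0.47 over 16140 genes), but with 2 pairs the pairing was not taken as given. With the replicate block 7184 genes were called (4306 without), and 4 members, adding Igfbp3 (1.16). Depth limits Igfbp6 and all members in groups of few cells.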
